A study of Homo sapiens with 12 samples.

Results

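The cyclins, the cyclin-dependent kinases (CDKs), the CDK inhibitors, the E2F transcription factors and the pocket proteins were examined by RNA-seq after K562 cells had been treated with the USP7 inhibitor FT671. Members were taken by gene symbol among protein-coding genes: cyclins A to L, numbered CDKs, CDKN inhibitors, E2F1 to E2F5, E2F7, E2F8, RB1, RBL1 and RBL2, while a few other genes of these families were not analysed here. This gave 56 of the 60609 genes in the count tables, and 47 of the 56 passed the filter on low counts, as did 13895 genes in all. K562 is an established human erythroleukemia cell line that lacks functional p53, and USP7 is a deubiquitinating enzyme. The groups were K562 cells given the solvent DMSO (3 libraries) and K562 cells given 10 μM FT671 (3 libraries), both for 48 h, and the libraries of a group came from independent experiments. ChIP libraries for H3K4me3, H3K36me3 and H3K27me3 in the same series were not analysed here.

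Cyclins are the regulatory partners of CDKs and rise and fall through the cell cycle. D-type cyclins with CDK4 and CDK6 start the phosphorylation of the pocket proteins, which releases E2F factors to switch on genes for DNA replication, and E-, A- and B-type cyclins with CDK2 and CDK1 then drive S phase and mitosis. INK4 and Cip/Kip inhibitors restrain these kinases, and a separate branch of the family, with cyclins C, H, K and L, acts on RNA polymerase II and splicing, cyclin H with CDK7 also activating the cell cycle CDKs.

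Libraries held between 4555220 and 14250500 counts, so that 3 counts, the smallest number regarded as detectable, were worth between 0.208 and 0.666 CPM (counts scaled to library size with TMM factors). The lowest count of any tested member in any library was 21. Treatment separated the libraries on the first principal component (69.1% of the variance), and DMSO replicate 3 lay apart from the other DMSO libraries on the second (12.5%, at −25.1 against 12.1 and 14.9). On the same component FT671 replicate 1 was at 16.1 and the other FT671 libraries at −10.9 and −7.27. Of the 47 tested members, DMSO replicate 3 was the highest DMSO library for 26 and the lowest for 16. Of 10 erythroid markers, 9 were tested, of which 6 fell and 3 rose at an adjusted p under 0.05. Of all genes tested, 26.5% fell and 23.6% rose. The summed level of the 10 markers was 1254 to 1302 CPM in DMSO and 1020.0 to 1062 CPM in FT671. The log2 fold change was −1.21 for EPOR, the erythropoietin receptor, and 1.41 and 1.22 for the fetal globins HBG1 and HBG2, near-identical copies whose counts may be split. Among 10 markers of T cells, B cells, myeloid cells, fibroblasts and endothelium, 4 never passed 3 counts in any library, 1 of these being at 0 throughout, and the summed level of the list was 40.9 to 45.5 CPM in DMSO and 48.7 to 54.9 CPM in FT671, with CD3D (0.44) as the 1 gene called. The part of these shifts and of DMSO replicate 3 in the values below was not tested beyond the refits without that library.

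After FT671, 16 of the 47 tested members fell and 11 rose at an adjusted p under 0.05. The share that fell was 34.0%, against 26.5% of all genes tested, and the share that rose was 23.4%, against 23.6%, which made 57.4% against 50.1% in either direction. The members that fell included all 3 activating E2Fs, 3 of 5 D- and E-type cyclins and the kinases CDK8, CDK19 and CDK13, whereas 7 of the 11 that rose belonged to the 13 transcriptional CDKs and cyclins. The median log2 fold change was −0.096 over the tested members and −0.01 over all genes tested. At the stricter adjusted p of 1e-05, 4 members fell (8.51%, against 4.13% of all genes tested), namely CCNF, CDK13, E2F8 and CDK8, and 0 rose, against 1.79% of all genes and 5.92% in either direction. Of members with a positive change, 11 had an unadjusted p under 0.05 in edgeR, and DESeq2 called 1 as higher at 1e-05. The count of 4 depended on the libraries: it was 0 to 1 when a library other than DMSO replicate 3 was left out, and 12 members fell and 4 rose without DMSO replicate 3. All FT671 libraries lay below all DMSO libraries for 18 members (38.3%, against 30.3% of all genes tested) and above them for 11 (23.4%, against 26.8%). Fold changes and adjusted p-values were computed with edgeR (quasi-likelihood F-test, Benjamini-Hochberg correction across the genes tested). Errors of fold changes are standard errors, derived as the size of the log2 fold change over the square root of the F statistic. Other errors are SDs with n = 3. In bulk RNA, fewer cells of a type and less RNA per cell cannot be told apart.

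**Figure D1:**
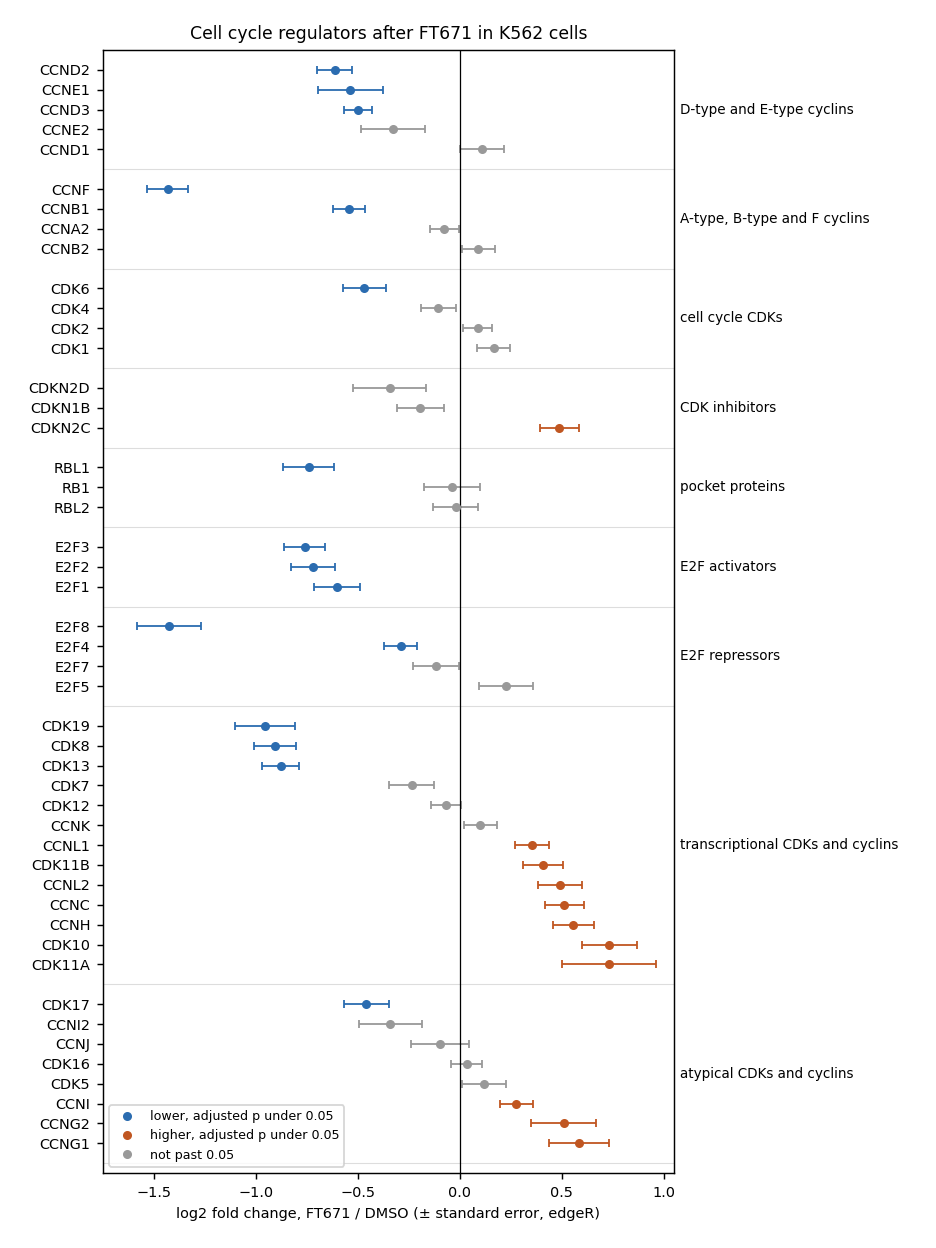
The x axis gives the log2 fold change of FT671 over DMSO for the 47 tested members, grouped by role. Bars give the standard error, derived from the fold change and the edgeR F statistic. CCNF at −1.43 and E2F8 at −1.42 lie farthest to the left, and the 7 members that rose among the transcriptional CDKs and cyclins lie between 0.36 and 0.73.

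Of the D-type cyclins, which couple growth signals to CDK4 and CDK6, CCND2 and CCND3 fell after FT671. Positions in brackets are those of GENCODE genes on hg38. CCND3 (ENSG00000112576, chr6:41934934-42050357) measured 291.5, 304 and 279 CPM in DMSO and 209, 204 and 206 CPM in FT671. This was 1.41-fold lower, a log2 fold change of −0.50 ± 0.0678 (adjusted p = 3.92e-05), with no overlap between the groups. CCND2 (ENSG00000118971, chr12:4269771-4305353) measured 205, 191 and 235 CPM in DMSO and 146, 137 and 129 CPM in FT671, again without overlap, and its log2 fold change was −0.61 ± 0.0863 (adjusted p = 5.32e-05). CCND1 (ENSG00000110092, chr11:69641156-69654474) did not pass the test. Its libraries measured 33.3, 33.7 and 34.4 CPM in DMSO and 39.3, 31.2 and 38.3 CPM in FT671, with FT671 replicate 2 below and the other FT671 libraries above all DMSO libraries, at a log2 fold change of 0.11 ± 0.108 (adjusted p = 0.428). Per kilobase of exon, CCND1 thus made up 8.45% ± 0.044 of the D-type cyclin reads in DMSO and 12.5% ± 1.27 in FT671, between 8.4% and 8.49% in the DMSO libraries and between 11.1% and 13.4% in the FT671 libraries. CCND3 held 60.2% ± 3.04 and 59.1% ± 1.13, and CCND2 31.3% ± 3.01 and 28.4% ± 1.21, both with overlapping libraries.

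Of their kinase partners, CDK6 fell and CDK4 did not pass the test. CDK6 (ENSG00000105810, chr7:92604921-92836573) measured 268, 259.5 and 352 CPM in DMSO and 191, 215 and 225 CPM in FT671, a log2 fold change of −0.47 ± 0.107 (adjusted p = 0.00233). The groups did not overlap, and DMSO replicate 3 was the highest library. Without it the log2 fold change was −0.32 (adjusted p = 0.000118). CDK4 (ENSG00000135446, chr12:57747727-57756013) measured 213, 199 and 172.5 CPM in DMSO and 195, 176 and 175.5 CPM in FT671, with overlapping groups and a log2 fold change of −0.10 ± 0.0852 (adjusted p = 0.326). DMSO replicate 3 was the lowest library for CDK4, and without it CDK4 was called lower at −0.19 (adjusted p = 0.0136). Of the exon bases of CDK4, 44.2% are shared with genes on the other strand. Such bases also make up 36.2% of CCNI2, 18.8% of E2F5, 16.8% of CDK2, 16.4% of RBL2, 15.3% of CDKN2A and 10.4% of CCND1. Of the exon bases of CCND2, 12.5% are shared with genes on the same strand. The strand setting of the counting is not given in the sources used here. How the shared bases affected the counts of CDK4 and of these members is thus not known. Per kilobase, CDK4 made up 72.3% ± 5.54 of the CDK4 and CDK6 reads in DMSO and 77.3% ± 2.44 in FT671, with overlap between the groups.

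Among the CDK inhibitors, CDKN2C (p18), an INK4 inhibitor of CDK4 and CDK6, was the 1 member that rose. CDKN2C (ENSG00000123080, chr1:50960745-50974634) measured 57.3, 61.5 and 51.8 CPM in DMSO and 72.6, 80.5 and 86.1 CPM in FT671. Of its exon bases, 20.4% are shared with genes on the other strand. All FT671 libraries were above all DMSO libraries, at a log2 fold change of 0.49 ± 0.0945 (1.4-fold, adjusted p = 0.000717). CDKN2D (ENSG00000129355, chr19:10566460-10569059), which encodes the INK4 inhibitor p19, did not pass the test. It measured 6.99, 7.69 and 6.84 CPM in DMSO and 5.55, 4.87 and 6.26 CPM in FT671, groups that did not overlap, at −0.34 ± 0.18 (adjusted p = 0.127). After a gene length correction it was called lower at −0.47 (adjusted p = 0.0407). CDKN2C made up 79.7% ± 0.757 of the INK4 reads per kilobase in DMSO and 87.7% ± 1.29 in FT671, from 78.9% to 80.3% and from 86.7% to 89.2%, so that the groups did not overlap. CDKN1B (ENSG00000111276, chr12:12685498-12722369), which encodes p27, an inhibitor of CDK2 complexes, measured 51.9, 52.2 and 47.9 CPM in DMSO and 43.3, 52.7 and 38.6 CPM in FT671, with overlap and a log2 fold change of −0.19 ± 0.114 (adjusted p = 0.175). It was called lower without DMSO replicate 3 (−0.24, adjusted p = 0.0408) and without FT671 replicate 2 (−0.32, adjusted p = 0.0424).

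The best known INK4 genes, CDKN2A (ENSG00000147889, chr9:21967752-21995301) and CDKN2B (ENSG00000147883, chr9:22002903-22009305), were not measurable. CDKN2B had 0 counts in all 6 libraries, and CDKN2A had 1 count, in DMSO replicate 3, and 0 in the others. Their 5 neighbours on 9p21 in the list, MTAP, CDKN2B-AS1, DMRTA1, KLHL9 and ELAVL2, also had 0 counts in every library. K562 cells are known to lack this stretch of chromosome 9. A count of 0 allows a level of up to 0.208 to 0.666 CPM, depending on the library, by counting error alone.

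Of the pocket proteins, which bind E2F factors, RBL1 (p107) fell and RB1 and RBL2 (p130) did not pass the test. RBL1 (ENSG00000080839, chr20:36996349-37095997) measured 57.6, 52.4 and 71.9 CPM in DMSO and 32, 35.4 and 39.1 CPM in FT671. The groups did not overlap, and the log2 fold change was −0.74 ± 0.124 (1.67-fold lower, adjusted p = 0.000228). RB1 (ENSG00000139687, chr13:48303744-48599436), the retinoblastoma gene, measured 59.1, 56.7 and 83.7 CPM in DMSO and 54.2, 65.5 and 70 CPM in FT671, with DMSO replicate 3 as the highest library, at −0.039 ± 0.138 (adjusted p = 0.833). RBL2 (ENSG00000103479, chr16:53433977-53491648) measured 39, 33.9 and 43.3 CPM in DMSO and 35.1, 37.9 and 39.9 CPM in FT671, at −0.02 ± 0.111 (adjusted p = 0.895). The groups overlapped for both, and the sign of both changes turned with the processing. RBL1 made up 40.3% ± 0.592 of the pocket protein reads per kilobase in DMSO and 29.2% ± 0.56 in FT671, RB1 40.7% ± 1.99 and 48.0% ± 1.34, and RBL2 19.0% ± 1.4 and 22.8% ± 0.972. Library by library RBL1 held 40.9%, 40.4% and 39.7% in DMSO against 29.6%, 28.6% and 29.4% in FT671.

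**Figure D2:**
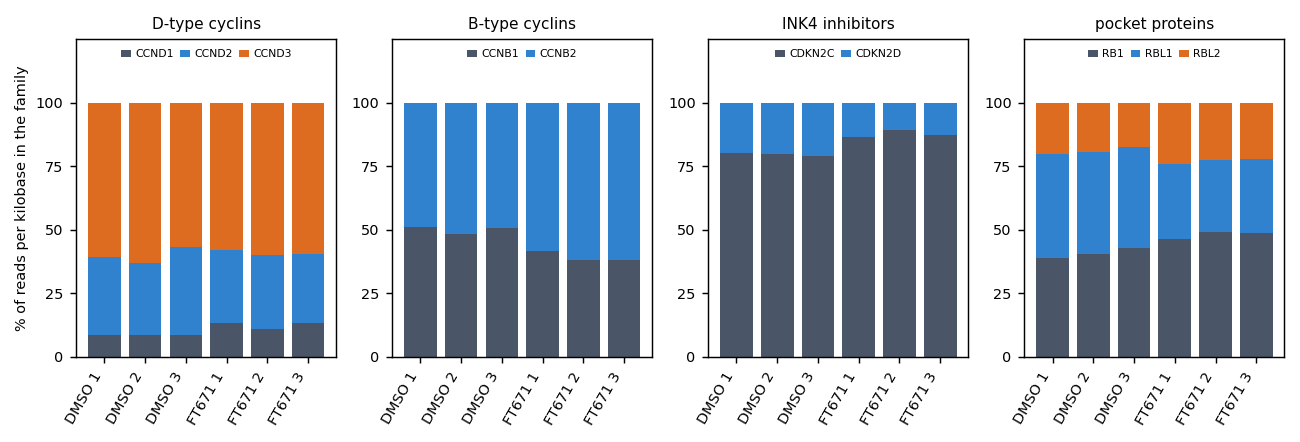
Stacked bars give, for each of the 6 libraries, the share (%) of the reads per kilobase of a family held by each member; members below 1% in every library are left out. The share of RBL1 among pocket proteins is near 40.3% in the DMSO libraries and near 29.2% in the FT671 libraries, and that of CCNB1 among B-type cyclins has a mean of 50.1% in DMSO and 39.4% in FT671.

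All 3 activating E2Fs, which turn on genes for DNA replication at the start of S phase, fell, and their groups did not overlap. E2F3 (ENSG00000112242, chr6:20401879-20493714) measured 72.4, 60.6 and 68 CPM in DMSO and 36.2, 40.6 and 41.3 CPM in FT671, a log2 fold change of −0.76 ± 0.1 (adjusted p = 3.13e-05). E2F2 (ENSG00000007968, chr1:23506438-23531233) measured 36.4, 34.1 and 35.1 CPM in DMSO and 21.5, 23.5 and 19.8 CPM in FT671, at −0.72 ± 0.108 (adjusted p = 9.37e-05). E2F1 (ENSG00000101412, chr20:33675477-33686385) measured 45, 46 and 36 CPM in DMSO and 29.3, 26.9 and 28.4 CPM in FT671, at −0.60 ± 0.113 (adjusted p = 0.000578). Per kilobase, E2F1, E2F2 and E2F3 made up 44.8%, 18.4% and 36.8% of the reads of the 3 genes in DMSO and 47.6%, 18.0% and 34.4% in FT671, each with overlapping libraries.

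E2F genes are known to be E2F targets themselves, so their promoters are shown here, with that of CDK10, a member that rose, for contrast. The sequences are from RefSeq on GRCh38.p14, 5′ to 3′ on the strand of the gene, and hold no annotated exon bases; the RefSeq start of CDK10 lies inside the GENCODE gene. Capitals mark E2F motifs (TTTCCCGC, TTTCGCGC, TTTGCCGC or TTTGGCGC), CHR motifs (TTTGAA) and CCAAT boxes (CCAAT), searched on both strands. The windows are chr20:33686386-33686535 (minus strand), chr1:23531234-23531383 (minus strand), chr6:20401729-20401878 (plus strand) and chr16:89686570-89686669 (plus strand).
E2F1: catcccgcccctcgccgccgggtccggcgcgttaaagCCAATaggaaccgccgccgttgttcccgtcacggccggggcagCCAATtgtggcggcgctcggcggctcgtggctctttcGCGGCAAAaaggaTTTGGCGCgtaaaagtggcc
E2F2: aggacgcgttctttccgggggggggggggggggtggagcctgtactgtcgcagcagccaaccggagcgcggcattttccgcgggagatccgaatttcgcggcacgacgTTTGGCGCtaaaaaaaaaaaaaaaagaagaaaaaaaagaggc
E2F3: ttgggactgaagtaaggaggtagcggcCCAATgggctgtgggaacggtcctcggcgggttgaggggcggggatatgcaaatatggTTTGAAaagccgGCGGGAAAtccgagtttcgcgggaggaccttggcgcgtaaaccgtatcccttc
CDK10: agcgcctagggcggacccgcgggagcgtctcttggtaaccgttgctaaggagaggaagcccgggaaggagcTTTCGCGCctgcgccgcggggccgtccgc

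Counted from −1 at the base before the RefSeq start, E2F motifs began at −33 and −20 in E2F1, −42 in E2F2, −53 in E2F3 and −48 in CDK10. In E2F1 they overlapped no CCAAT box, the boxes beginning at −113 and −70. Over windows of 250 bases before to 50 after the start, 8 of the 50 members with a RefSeq promoter held an E2F motif (16.0%). Among the 9863 tested genes with a promoter the share was 6.81%. Unlike these, the 50 members include some that did not pass the filter on low counts. A gene with several promoters counted once, if any held the motif. Counted by promoter, which is not the same unit, 3.31% of all 35116 promoters held it. The 8 members were E2F1, E2F2, E2F3, RBL1 and CDK19, which fell, CDK10 and CDK11B, which rose, and CDK1, which did not pass the test. This made 5 of 14 matched members that fell, 2 of 11 that rose and 1 of 16 that did not pass. E2F8, CCNE2, CCND2, E2F5, CCND1 and CDK2 had no match in the promoter table.

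Of the repressive E2Fs, E2F8 and E2F4 fell, and E2F7 and E2F5 did not pass the test. E2F8 (ENSG00000129173, chr11:19224063-19241620), an atypical E2F that shuts off E2F targets later in S phase, measured 21.1, 23.6 and 18.7 CPM in DMSO and 6, 8.48 and 8.67 CPM in FT671. Its groups did not overlap, and at −1.42 ± 0.157 (2.68-fold lower, adjusted p = 6.11e-06) it had the second lowest log2 fold change of the members. E2F4, which acts with RBL1 and RBL2 in resting cells, measured 88.2 ± 5.7 CPM in DMSO and 72.6 ± 1.9 CPM in FT671, at −0.29 ± 0.0812 (adjusted p = 0.00889). Its call was lost without FT671 replicate 3 (−0.26, adjusted p = 0.0531). E2F7, the closest relative of E2F8, measured 35.6 ± 4.39 CPM in DMSO and 32.4 ± 1.67 CPM in FT671 (adjusted p = 0.412). E2F5 measured 21.3 ± 3.82 CPM in DMSO and 24.7 ± 1.63 CPM in FT671 (adjusted p = 0.173) and was called higher without DMSO replicate 3 (0.33, adjusted p = 0.0186) and after a gene length correction (0.32, adjusted p = 0.0455).

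**Figure D3:**
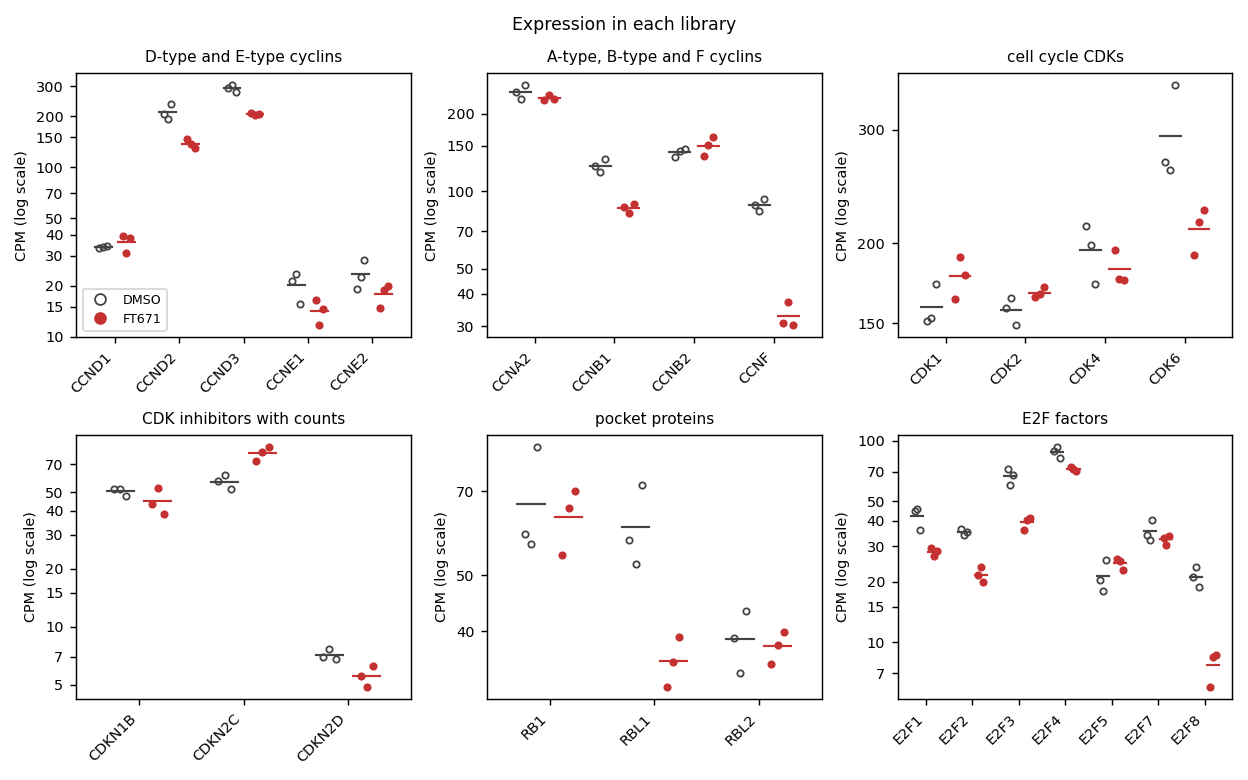
Each panel gives the level in CPM on a log axis for the members of 1 role, with open circles for the 3 DMSO libraries, filled circles for the 3 FT671 libraries and lines for the means. The groups are apart for CCND2, CCND3, CCNB1, CCNF, CDK6, RBL1, E2F1, E2F2, E2F3, E2F4 and E2F8 (FT671 lower) and for CDKN2C (FT671 higher), and also for CDKN2D and CDK2, which did not pass the test.

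The E-type cyclins activate CDK2 at the entry into S phase. CCNE1 (ENSG00000105173, chr19:29811991-29824312) measured 21.3, 23.4 and 15.7 CPM in DMSO and 16.4, 11.7 and 14.5 CPM in FT671, a log2 fold change of −0.54 ± 0.16 (adjusted p = 0.0124). FT671 replicate 1 was above DMSO replicate 3, so that the groups overlapped, and the call was lost without DMSO replicate 2 (−0.42, adjusted p = 0.0679) and without FT671 replicate 2 (−0.43, adjusted p = 0.065). CCNE2 (ENSG00000175305) measured 19.2, 22.6 and 28.5 CPM in DMSO and 14.7, 18.8 and 20 CPM in FT671, with FT671 replicate 3 above DMSO replicate 1, at −0.33 ± 0.156 (adjusted p = 0.0954). It was called lower in 6 alternatives, among them the fit without DMSO replicate 1 (−0.48, adjusted p = 0.0306) and a GC correction (−0.39, adjusted p = 0.0106). Exon bases shared with genes on the other strand make up 37.1% of CCNE2. CDK2 (ENSG00000123374, chr12:55966781-55972789), their kinase, measured 158.5, 164.5 and 149 CPM in DMSO and 165, 167 and 171 CPM in FT671, at 0.088 ± 0.0708 (adjusted p = 0.32). All FT671 libraries of CDK2 lay above the DMSO libraries, and the change was called after a GC correction (0.15, adjusted p = 0.0384).

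Of the A-, B- and F-type cyclins, CCNB1 and CCNF fell, and CCNA2 and CCNB2 did not pass the test. CCNF (ENSG00000162063, chr16:2429394-2458854), the F-box cyclin, which acts in an SCF ubiquitin ligase and not with a CDK, measured 88.3, 83.7 and 93 CPM in DMSO and 30.9, 37.3 and 30.2 CPM in FT671. This was 2.7-fold lower, at −1.43 ± 0.101 (adjusted p = 1.37e-07), the lowest log2 fold change and the smallest adjusted p of the 47 tested members, with no overlap. Antisense RNAs cover part of CCNF, and 11.8% of its exon bases are shared with genes on the other strand; the counts of ENSG00000260874, the most abundant of them, were 185, 111 and 65 in DMSO and 24, 26 and 48 in FT671. CCNB1 (ENSG00000134057, chr5:69167135-69178245), a partner of CDK1 at mitosis, measured 125.5, 118 and 134 CPM in DMSO and 86.6, 82.4 and 89.4 CPM in FT671. It was 1.46-fold lower without overlap, at −0.54 ± 0.0784 (adjusted p = 6.82e-05). Its relative CCNB2 measured 142 ± 5.58 CPM in DMSO and 150.2 ± 13.2 CPM in FT671, at 0.091 ± 0.08 (adjusted p = 0.366). CCNB1 therefore made up 50.1% ± 1.63 of the B-type cyclin reads per kilobase in DMSO and 39.4% ± 2.09 in FT671, between 48.2% and 51.2% against between 38.1% and 41.8%.

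CCNA2 (ENSG00000145386, chr4:121816444-121823883), which acts with CDK2 and CDK1 in S phase and G2, measured 243, 228 and 258 CPM in DMSO and 226, 236 and 228 CPM in FT671, at −0.075 ± 0.0711 (adjusted p = 0.398). CDK1 (ENSG00000170312, chr10:60778331-60794852), the mitotic kinase, measured 151, 153 and 173 CPM in DMSO and 164, 190.3 and 179 CPM in FT671, at 0.17 ± 0.0811 (adjusted p = 0.105). The groups overlapped for both. DMSO replicate 3 was the highest DMSO library for CDK1, and without it CDK1 was called higher at 0.22 (adjusted p = 0.0065).

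Promoters of mitotic cyclins are known for CCAAT boxes and CHR motifs, and those of CCNF and CCNB1, which fell, are shown beside that of CCNB2, which did not pass the test. The windows are chr16:2429244-2429393, chr5:69166985-69167134 and chr15:59104976-59105125 on GRCh38.p14 (RefSeq), all on the plus strand, with the same capitals as above.
CCNF: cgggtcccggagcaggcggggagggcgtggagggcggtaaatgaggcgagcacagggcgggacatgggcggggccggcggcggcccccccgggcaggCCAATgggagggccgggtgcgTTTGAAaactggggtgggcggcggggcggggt
CCNB1: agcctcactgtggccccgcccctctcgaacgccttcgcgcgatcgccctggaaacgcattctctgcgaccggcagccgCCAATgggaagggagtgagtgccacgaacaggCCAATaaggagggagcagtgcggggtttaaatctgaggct
CCNB2: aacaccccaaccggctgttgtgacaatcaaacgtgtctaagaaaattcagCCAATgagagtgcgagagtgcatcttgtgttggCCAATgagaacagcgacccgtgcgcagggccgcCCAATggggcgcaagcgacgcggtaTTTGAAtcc

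CCNF held 1 CCAAT box and 1 CHR motif, CCNB1 held 2 CCAAT boxes, and CCNB2 held 3 CCAAT boxes and 1 CHR motif. Only the exact letters TTTGAA, on either strand, counted as CHR, so that other forms of the motif were not looked for. CCAAT boxes were found in 23 of the 50 matched members (46.0%), against 43.3% of the tested genes and 34.6% of all promoters. CHR motifs were found in 8 of 50 (16.0%), against 13.3% of the tested genes and 15.2% of all promoters. The 50 matched members again include some that did not pass the filter on low counts. Of the members that fell, 6 of 14 held a CCAAT box and 3 of 14 a CHR motif, and of those that did not pass the test 10 of 16 and 3 of 16.

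In the transcriptional branch, CDK8, CDK19 and CDK13 fell, while CCNC, CCNH, CCNL1, CCNL2, CDK10, CDK11A and CDK11B rose. CDK8 and CDK19 are alternative kinases of the Mediator module, which links transcription factors to RNA polymerase II, and cyclin C (CCNC) is their partner. CDK8 (ENSG00000132964, chr13:26254104-26420982) measured 58, 57.6 and 60.3 CPM in DMSO and 27.5, 30.3 and 34.5 CPM in FT671, at −0.91 ± 0.103 (1.88-fold lower, adjusted p = 7.89e-06). CDK19 (ENSG00000155111, chr6:110609978-110815958) measured 30.1, 29.4 and 42.1 CPM in DMSO and 16.4, 16.1 and 18.2 CPM in FT671, at −0.96 ± 0.146 (1.94-fold lower, adjusted p = 0.000108). CCNC (ENSG00000112237, chr6:99542387-99568825) measured 42.4, 42.6 and 49.5 CPM in DMSO and 64.6, 66 and 60.2 CPM in FT671, at 0.51 ± 0.0958 (1.43-fold higher, adjusted p = 0.000552). The groups did not overlap for any of the 3. Exon bases shared with genes on the other strand make up 13.1% of CCNC. The ratio of CCNC to CDK8 plus CDK19, in reads per kilobase, was 0.468, 0.475 and 0.485 in the DMSO libraries and 1.45, 1.39 and 1.11 in the FT671 libraries. The share of CDK8 in the reads of both kinases was 73.8% ± 3.51 in DMSO and 74.5% ± 1.33 in FT671.

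In the CDK-activating kinase, CDK7 pairs with cyclin H (CCNH) and phosphorylates both CDKs and RNA polymerase II, and here the cyclin rose while the kinase did not pass the test. CCNH (ENSG00000134480, chr5:87318416-87412930) measured 58.6, 61.8 and 76 CPM in DMSO and 88.6, 99.2 and 97.4 CPM in FT671, at 0.56 ± 0.1 (1.47-fold higher, adjusted p = 0.000402), with no overlap. CDK7 measured 40.6 ± 1.45 CPM in DMSO and 34.1 ± 4.63 CPM in FT671, at −0.24 ± 0.11 (adjusted p = 0.0898), without overlap. It was called lower in 4 alternatives, among them the fit without DMSO replicate 3 (−0.24, adjusted p = 0.0456) and a gene length correction (−0.31, adjusted p = 0.0275). The ratio of CCNH to CDK7 was 0.56, 0.633 and 0.765 in DMSO and 1.23, 1.15 and 1.03 in FT671. For CCNH, 21.2% of exon bases are shared with genes on the other strand.

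CDK12 and CDK13 are related kinases that act with cyclin K (CCNK) in transcription elongation, and of the 3 genes CDK13 changed. CDK13 (ENSG00000065883, chr7:39950121-40099580) measured 80.1, 80 and 81.1 CPM in DMSO and 49.1, 40.6 and 42.2 CPM in FT671. It was 1.84-fold lower without overlap, at −0.88 ± 0.0921 (adjusted p = 4.02e-06). CDK12 measured 147 ± 8.05 CPM in DMSO and 140.0 ± 5.1 CPM in FT671 (adjusted p = 0.467) and CCNK 179 ± 14 CPM in DMSO and 191 ± 15.2 CPM in FT671 (adjusted p = 0.33). The ratio of CDK13 to CDK12 was 0.286 ± 0.0131 in DMSO and 0.165 ± 0.0185 in FT671, and that of CCNK to both kinases 1.49 ± 0.0853 and 1.85 ± 0.12. CCNK was called higher after a gene length correction (0.22, adjusted p = 0.0247), and 59.5% of its exon bases are shared with genes on the other strand.

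CDK11A, CDK11B and the L-type cyclins, known for roles in splicing, rose, as did CDK10. CDK10 (ENSG00000185324, chr16:89680737-89696354), whose promoter is shown above, measured 11.6, 9.98 and 9.61 CPM in DMSO and 18.4, 18 and 16.6 CPM in FT671, at 0.73 ± 0.135 (1.66-fold, adjusted p = 0.000497). CDK11A (ENSG00000008128, chr1:1702379-1724357) measured 2.91, 4.49 and 3.88 CPM in DMSO and 7.33, 6.13 and 5.45 CPM in FT671, at 0.73 ± 0.229 (adjusted p = 0.0159). Groups did not overlap for either. CDK11A and its neighbour CDK11B are near-identical copies, sharing 64.3% and 64.2% of their 50-base stretches of transcript, and 48.1% of the exon bases of CDK11A lie in another gene on the same strand, so that the split between them is uncertain. CDK11B measured 34.4 ± 2.87 CPM in DMSO and 45.8 ± 1.21 CPM in FT671, at 0.41 ± 0.0986 (adjusted p = 0.00354). CCNL2 measured 43.7 ± 2.83 CPM in DMSO and 61.7 ± 8.65 CPM in FT671, at 0.49 ± 0.109 (adjusted p = 0.00197), and CCNL1 67.7 ± 1.77 CPM in DMSO and 86.2 ± 6.37 CPM in FT671, at 0.36 ± 0.0833 (adjusted p = 0.00277). CDK11A lost its call without DMSO replicate 1 (0.53) and without FT671 replicate 1 (0.64).

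**Figure D4:**
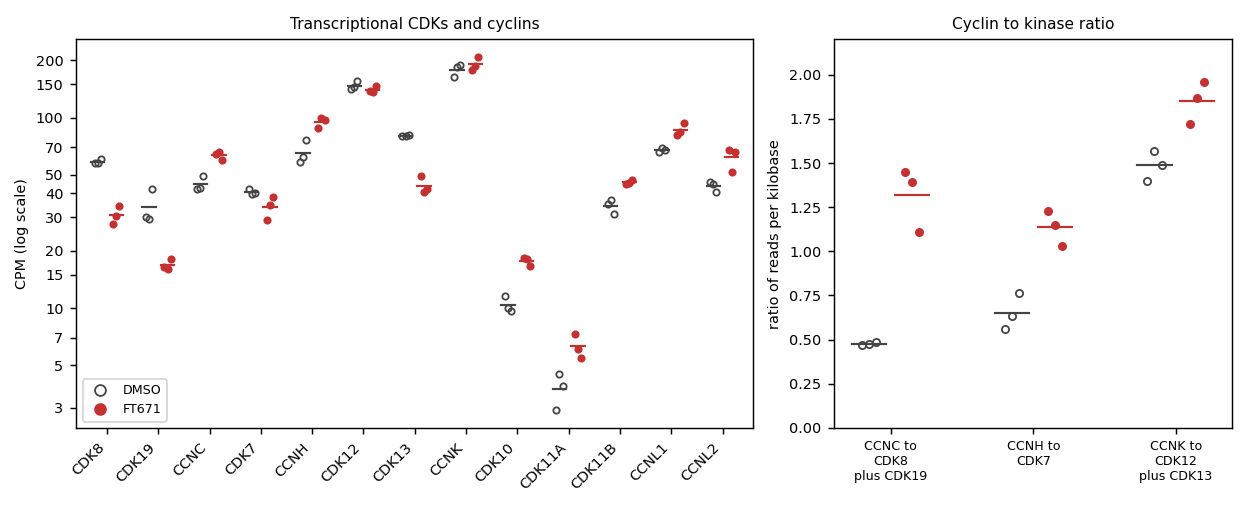
The left panel gives the level in CPM (log axis) of the transcriptional CDKs and cyclins in each DMSO library (open circles) and FT671 library (filled circles), with lines for the means. The right panel gives the ratio of each cyclin to its kinases in reads per kilobase, from a mean of 0.476 to 1.31 for CCNC, from 0.653 to 1.14 for CCNH and from 1.49 to 1.85 for CCNK.

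Among the cyclins and CDKs outside the classical cycle, 3 of 8 tested members rose and 1 fell, against 23.6% higher and 26.5% lower of all genes tested. CCNG1 (ENSG00000113328, chr5:163437569-163446151), a cyclin known as a p53 target, measured 154, 151 and 243 CPM in DMSO and 277, 297 and 241 CPM in FT671, at 0.58 ± 0.147 (adjusted p = 0.00451). DMSO replicate 3 lay above FT671 replicate 3, so that the groups overlapped, and without DMSO replicate 3 the log2 fold change was 0.82 (adjusted p = 1.55e-10). CCNG2 (ENSG00000138764, chr4:77157207-77433388), its relative, measured 6.65, 6.6 and 7.39 CPM in DMSO and 8.66, 9.56 and 10.4 CPM in FT671, at 0.51 ± 0.16 (adjusted p = 0.0164), without overlap, but its call was lost in 5 alternatives. CCNI measured 456 ± 51.6 CPM in DMSO and 552 ± 17 CPM in FT671, at 0.28 ± 0.0811 (adjusted p = 0.0111). Its call was lost without DMSO replicate 1 (adjusted p = 0.0597) and without FT671 replicate 2 (adjusted p = 0.0576). CDK17, a kinase close to CDK16, measured 26.7 ± 1.69 CPM in DMSO and 19.4 ± 1.01 CPM in FT671, at −0.46 ± 0.111 (adjusted p = 0.0034). CDK5, CDK16, CCNI2 and CCNJ did not pass the test, at 0.12 ± 0.109, 0.033 ± 0.0776, −0.34 ± 0.156 and −0.096 ± 0.143 on the log2 scale.

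The 9 members that did not pass the filter on low counts were CCNA1, CCNB3, CDKN2A, CDKN2B, CDK3, CDK14, CDK15, CDK18 and CDK20. CCNA1, a cyclin known from the germ line, had 0 counts in all libraries. CCNB3 had 0 counts in the DMSO libraries and 1, 1 and 2 in the FT671 libraries, which is within the limit of 3 counts. CDK14 had 5 to 16 counts and CDK20 3 to 17, CDK18 had 2 to 5, CDK15 0 to 4 and CDK3 0 to 1. For CDK3, 91.4% of exon bases are shared with genes on the same strand.

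Compared per kilobase of exon (RPKM), the highest level in DMSO was that of CCNI (112.7 ± 12.7 RPKM), followed by CCNA2 (88.4 ± 5.42), CDK4 (63.0 ± 6.64), CCNG1 (59.0 ± 17.0), CCNB1 (51.7 ± 3.15), CCNB2 (51.5 ± 2.03) and CCND3 (50.6 ± 2.15). The libraries of CCNG1 overlapped those of CDK4 and of CCNB1, as did those of CCNB1, CCNB2 and CCND3, while CCNI, CCNA2 and CDK4 did not overlap each other. CDK1 (40.7 ± 3.08 RPKM) and CDK2 (40.5 ± 2.01 RPKM) could not be told apart. In FT671 the order opened with CCNI (136.4 ± 4.2 RPKM), CCNG1 (87.8 ± 9.1 RPKM), CCNA2 (83.7 ± 2.02 RPKM) and CDK4 (58.8 ± 3.56 RPKM), with the libraries of CCNG1 spanning those of CCNA2. Of the 47 tested members, CCNF went from rank 18 in DMSO to rank 32 in FT671 and CCNB1 from 5 to 9, while CCNC went from 28 to 20 and CCNH from 23 to 16. Lengths are those of all annotated exons of a gene joined, which lowers the RPKM of genes with long, rarely used exons.

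Genes around the cyclins and CDKs were read from lists. Of 12 activators, inhibitors and cofactors of CDKs, 6 fell and 2 rose (median log2 fold change −0.35, against −0.01 for all genes tested). For these and the following lists, the shares of all genes tested were 26.5% lower and 23.6% higher. WEE1, the kinase that holds CDK1 inactive, was lowest at −0.91 ± 0.0806 (adjusted p = 8.99e-07). CDK5R1, an activator of CDK5, was next at −0.87 ± 0.282 (adjusted p = 0.0191). Its counts were low, at 40, 35 and 15 in DMSO and 5, 10 and 19 in FT671. CDK2AP1, which binds CDK2, was highest at 0.40 ± 0.0999 (adjusted p = 0.00406), followed by MNAT1, the assembly factor of CDK7 and CCNH, at 0.37 ± 0.113 (adjusted p = 0.013). Of 13 subunits and regulators of the ubiquitin ligases that degrade cyclins and inhibitors, 5 fell and 2 rose (median −0.20). CUL1, the SCF scaffold, was at −1.16 ± 0.107 (adjusted p = 1.23e-06) and FZR1, an activator of the anaphase-promoting complex, at −0.95 ± 0.146 (adjusted p = 0.000116), whereas SKP1, the SCF adaptor, was at 0.65 ± 0.0766 (adjusted p = 1.11e-05) and SKP2, the F-box protein for p27, at 0.39 ± 0.0792 (adjusted p = 0.000953). Of 10 E2F partners and DREAM or MuvB subunits, 4 fell and 0 rose at 0.05 (median −0.27), the lowest being LIN52, a MuvB subunit, at −0.57 (adjusted p = 0.00463) and TFDP2, a dimer partner of E2Fs, at −0.54 (adjusted p = 5.23e-05).

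Of 20 S phase genes, 7 fell and 6 rose (median 0.046), and of 18 tested G2/M genes, 5 fell and 5 rose (median −0.06), both near the shares of all genes tested. Of the S phase genes, PCNA, the sliding clamp of DNA polymerase, was at −1.44 (adjusted p = 5.15e-08) and CHAF1A, a chromatin assembly factor, at −0.48 (adjusted p = 0.000324), whereas MCM4, a subunit of the replicative helicase, was at 0.45 (adjusted p = 0.000111) and POLA1, the catalytic subunit of polymerase alpha, at 0.35 (adjusted p = 0.0154). Of the G2/M genes, KIF23, a kinesin of cytokinesis, was at −1.16 (adjusted p = 3.49e-06) and the mitotic kinase PLK1 at −0.90 (adjusted p = 2.41e-07). The kinetochore genes CENPE and CENPF were at 0.45 (adjusted p = 0.0362) and 0.34 (adjusted p = 0.023). Their groups overlapped, with DMSO replicate 3 (53.2 and 210.2 CPM) above the lowest FT671 library (47.1 and 202.6 CPM). UBE2C and NUSAP1 of this list had at most 3 counts in any library and did not pass the filter on low counts. The reason for counts this low was not tested.

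**Figure D5:**
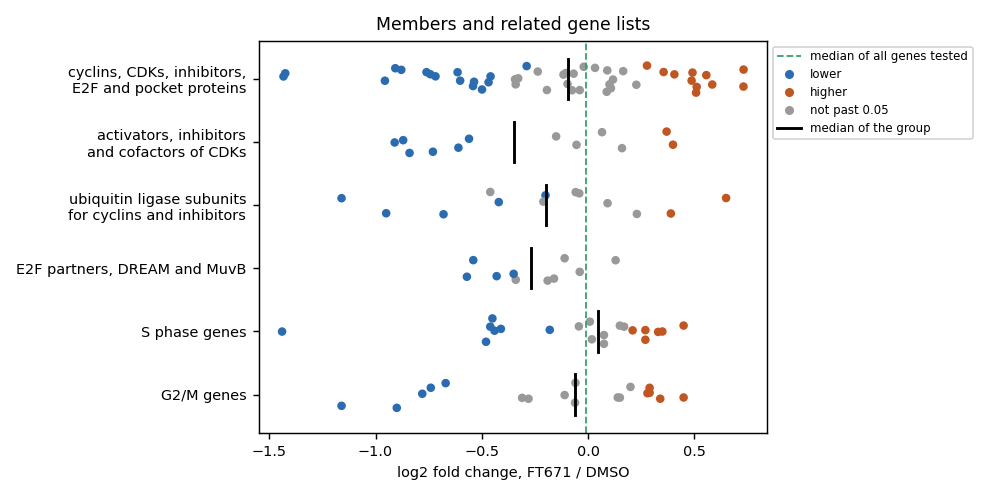
Each point is 1 tested gene, placed by its log2 fold change of FT671 over DMSO, for the 47 members (top) and 5 lists of related genes, with black lines for the medians and a dashed line for the median of all genes tested (−0.01). Medians of the lists run from −0.35 for the CDK activators, inhibitors and cofactors to 0.046 for S phase genes.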

How the data were processed

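The authors deposited 1 read count per gene and library, without normalization. Per the labels and the methods, ribosomal RNA was depleted, and paired-end reads were aligned by the authors to hg38 with STAR (two-pass mode), which also made the counts. The STAR version, annotation release and strand setting are not given in the sources used here. Symbols, positions and exon lengths were taken from GENCODE by Ensembl identifier. Genes passing edgeR's filterByExpr were fitted with glmQLFit (edgeR 4.0.16, R 4.3.3) on TMM-scaled counts of the 6 libraries, without covariates, at adjusted p 0.05 and 1e-05. The fit was tested on simulated data. CPM and RPKM were computed from the counts. Members, roles and lists were chosen with earlier results of these data known. Every member is named; values in every library are given for members past 1e-05, members past 0.05 with a log2 fold change of at least 0.5 in size, and the main cell cycle genes. Of each list the 2 lowest and 2 highest genes past 0.05 are named. Of these, 1 gene is not reported here. The 18 alternatives changed scaling, filter, tool (DESeq2 1.42.0), gene set, length and GC correction, replicate block, or left out 1 library. The limits given for genes with low or no counts cover counting error only. The standard errors and SDs also include variation between libraries.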

Additional observations from a re-analysis of the deposited data

How the results depend on the processing

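In all 18 alternatives, 22 of the 27 called members kept direction and call. CCNE1, CCNG2, CCNI, CDK11A and E2F4 lost the call in at least 1, and 9 of the 20 uncalled members gained one in at least 1. At 0.05, 15 to 19 members fell and 8 to 13 rose. At 1e-05, 4 members fell, against 11 with DESeq2, 10 with the GC correction, 11 with GC correction and replicate block, 7 with length correction and block, 13 without the filter on low counts and 0 to 12 with 1 library left out. None rose at 1e-05, against 1 with DESeq2, 1 with length correction and block, 2 without the filter and 0 to 4 with 1 library left out, 4 being without DMSO replicate 3. The median of −0.096 was −0.055 with length correction and block, −0.15 without the filter and between −0.14 and −0.041 with 1 library left out. The causes were not tested.

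The sign turned for 5 uncalled members. CDK12 was at 0.068 with the length correction and 0.067 with length correction and block. RBL2 was at 0.096 and 0.084, and RB1 at 0.066 and 0.04, in the same fits. With 1 library left out, CDK16 ranged from −0.0081 to 0.083, RBL2 from −0.10 to 0.048, RB1 from −0.14 to 0.14 and CCNJ from −0.20 to 0.03, with the sign turned without DMSO replicate 3 in all 4 (−0.0081, 0.048, 0.14 and 0.008). Without FT671 replicate 1, CDK16, RBL2 and RB1 were at −0.0013, 0.026 and 0.053. CDK16 was at −0.0058 without the filter.

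Whether libraries of the same replicate number came from the same experiment is not stated in the sources used here. Deviations from the group means correlated at 0.115, −0.0605 and 0.14 between libraries of the same number. Between libraries of different numbers they correlated at −0.168 to 0.125, so that these values cannot decide whether the libraries were paired. With the replicate block alone, 17 members fell and 11 rose at 0.05, 5 fell and 0 rose at 1e-05, the median was −0.094, and CCNE2 was called at −0.39 (adjusted p = 0.0145).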
